A study of Mus musculus with 6 samples.

Results

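Interleukins 12, 23, 27 and 15 are the cytokines through which dendritic cells steer T cells and natural killer (NK) cells. The 9 genes described here encode their chains, the IL-15 receptor alpha chain and a pair of further cytokines of the same cells, IL-10 and IL-6. They were chosen by name, as Il12a, Il12b, Il23a, Il27, Ebi3, Il15, Il15ra, Il10 and Il6, out of 32285 features in the count table. The cells were cDC1s, conventional dendritic cells of type 1 that excel at presenting captured antigen to CD8 T cells, sorted by flow cytometry from mLN. Every mouse was C57BL/6 and had been given 50 µg of house dust mite extract (HDM), a common airway allergen, into the nose 24 h before the sort. The compared groups were wild type (WT, 3 libraries) and mice of the genotype Vps33BdeltaDC (KO, 3 libraries), in which Vps33b was deleted conditionally. The labels do not name the promoter that drove the deletion, give no ages and include no mice without HDM. Nor do they say whether libraries within a group are from different animals. The p-values therefore reflect only how these samples scatter, and that scatter could be technical.

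Members of the IL-12 family are secreted as pairs of different chains. The p40 chain (Il12b) joins p35 (Il12a) to form IL-12, which drives interferon-gamma responses, or p19 (Il23a) to form IL-23, which sustains type 17 cells; EBI3 joins p28 (Il27) to form IL-27 and can join p35 to form IL-35. IL-15 is held at the cell surface by IL-15 receptor alpha (Il15ra), and dendritic cells present this complex to NK cells and memory CD8 T cells, for which it is a survival signal. IL-10 is a cytokine that restrains dendritic cells, and IL-6 is an inflammatory cytokine that signals through the shared gp130 receptor chain. In textbook accounts cDC1s are a main source of IL-12, and the supply of p35 limits how much of the pair is made.

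The partner chains of IL-12 lay at opposite ends of the levels measured here, and the 250 bases before their start sites are shown for that reason. They were copied from RefSeq promoter windows on the GRCm38.p6 build and are written 5′ to 3′ on the plus strand. Capitals mark matches to the NF-kB-like pattern GGGNNNNNCC, searched on both strands. The Il12b stretch is chr11:44399813-44400062, and the Il12a stretches, before separate start sites of the gene, are chr3:68690394-68690643 and chr3:68691174-68691423.
Il12b: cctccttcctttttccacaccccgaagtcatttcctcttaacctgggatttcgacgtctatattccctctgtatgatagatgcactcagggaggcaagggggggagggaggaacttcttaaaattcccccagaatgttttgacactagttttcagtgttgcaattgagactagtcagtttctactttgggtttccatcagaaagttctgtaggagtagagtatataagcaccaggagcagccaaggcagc
Il12a, first start: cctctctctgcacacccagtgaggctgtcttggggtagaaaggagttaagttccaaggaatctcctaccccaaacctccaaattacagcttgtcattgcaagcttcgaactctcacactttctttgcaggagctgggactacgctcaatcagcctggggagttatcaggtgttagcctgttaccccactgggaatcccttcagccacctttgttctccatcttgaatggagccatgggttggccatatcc
Il12a, second start: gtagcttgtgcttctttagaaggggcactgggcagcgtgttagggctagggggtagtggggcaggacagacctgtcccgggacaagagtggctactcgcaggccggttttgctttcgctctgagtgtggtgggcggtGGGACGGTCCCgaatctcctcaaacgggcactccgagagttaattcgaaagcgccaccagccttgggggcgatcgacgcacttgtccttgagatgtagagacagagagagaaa
The RefSeq table held 7 windows for 5 of the 9 genes (Il12a, Il12b, Ebi3, Il15ra and Il6). In the windows of 250 bases before to 50 after the start, Il12b and the first Il12a start had 0 matches to this pattern. The second Il12a start had 3, of which the pair that begins at -113 and -112 overlaps and appears above as 1 run of capitals. Of the other windows, that of Ebi3 had 4 matches, that of Il6 had 3, and those of Il15ra had 0 and 1. Among all 32851 RefSeq windows, 50.8% held a match. The AP-1-like pattern TGANTCA was in the Il6 window and in 1 of the Il15ra windows, against 7.81% of all windows, and the interferon-response-like pattern GAAANNGAAA was in none of the 7, against 3.44%. A match is a run of letters and not a site shown to be bound, and an absent one says only that these letters are not in this window.

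The libraries held 11755944 to 18450678 counts each and 94020586 together. Values are CPM, each library's counts set to a common total and scaled by TMM, edgeR's correction for differences in library composition, and 3 counts, taken as the floor below which a 0 sets no limit, corresponded to 0.159 to 0.265 CPM. Vps33b was at 13.8 to 19.1 CPM in WT and 4.997 to 8.29 CPM in KO, without overlap, and was still read in KO, at a log2 fold change of -1.28 ± 0.27 (SE; edgeR adjusted p = 0.834; exact two-sided permutation test, p = 0.1, the smallest that 3 against 3 allows). Its binding partner Vipas39 was at 48.2 to 61.7 CPM in WT and 55.6 to 57.6 CPM in KO. All 13 cDC1 markers were detected, with sums of 3060 to 3250 CPM in WT and 2760 to 3350 CPM in KO. The 12 genes of mature migratory dendritic cells summed to 20800 to 22600 and 22500 to 28000 CPM. Of the cDC1 markers 11 of 13 had a log2 fold change below 0, 4 of them at an unadjusted p below 0.05, and of the mature genes 10 of 12 lay above 0, 2 of them at an unadjusted p below 0.05. Over all 12568 genes tested, 5.77% were at an unadjusted p below 0.05, and 0 markers of either list passed the adjusted threshold. Sums for other cells, WT then KO, were 220 to 453 and 214 to 795 CPM for 12 monocyte and macrophage genes, 168 to 297 and 119 to 401 for 8 B cell genes, and 146 to 211 and 129 to 185 for 8 cDC2 genes. They were 115 to 159 and 127 to 181 CPM for 6 pDC genes, 60.1 to 68.4 and 53.5 to 96.1 for 7 NK cell genes, and 47.2 to 68.6 and 61.4 to 73.9 for 8 T cell genes. Neutrophil genes (6) summed to 1.28 to 3.08 and 0.724 to 8.20 CPM and stromal and epithelial genes (7) to 20.8 to 22.6 and 19.2 to 33.2, with 1 of the latter at 0 throughout. The part of these cells in any result was not tested, and in bulk RNA fewer cells of a type and less RNA per cell cannot be told apart.

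None of the 9 genes differed between KO and WT past the threshold. Of the 9, 7 passed edgeR's filter on low counts, and 3 of these had a log2 fold change above 0 and 4 below 0, with a median of -0.03 against 0.004 over all 12568 genes tested. Adjusted p-values of the 7 ran from 0.887 to 0.986 (edgeR quasi-likelihood test, Benjamini-Hochberg over all genes). The call at an adjusted p below 0.05 was made for 0 of the 7, and for 0% of all genes tested. At an unadjusted p below 0.05 the numbers were 0 of the 7 and 5.77% of all genes (725, of which 341 were higher and 384 lower in KO). WT and KO values overlapped for each of the 7, whereas 10.6% of all genes tested had groups that did not overlap. A p above the threshold does not show that a gene was equal in both groups, and the 95% intervals given below say how large a difference the data allow.

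**Figure D1:**
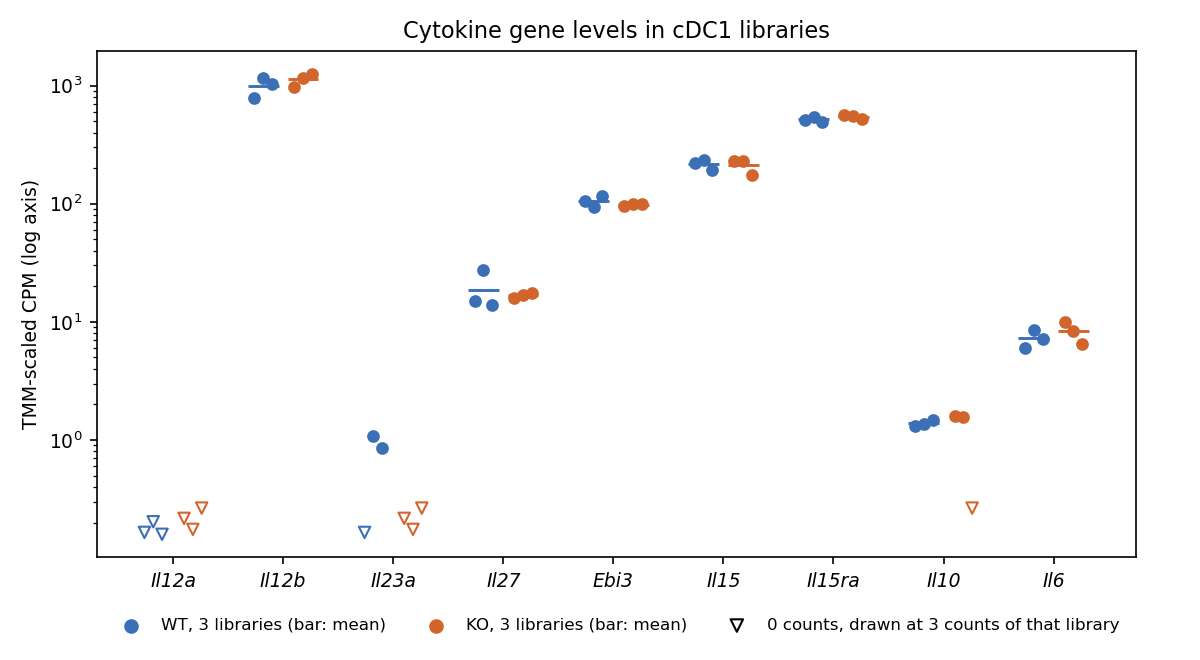
Level of each of the 9 genes in each library, in TMM-scaled CPM on a log axis, with blue points for WT and orange points for KO. A bar marks the mean of each group that has no library at 0 counts. Open triangles stand for 0 counts and are drawn at 3 counts of that library (0.159 to 0.265 CPM). The levels run from Il12a, at 0 counts throughout, to Il12b, at 782 to 1257 CPM, and WT and KO points overlap for every gene tested.

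Il12b encodes the p40 chain shared by IL-12 and IL-23, and it was by far the most abundant of the 9 transcripts. Il12b (ENSMUSG00000004296, chromosome 11 from 44400063 to 44414033, plus strand, mm10, 8 merged exons) was read at 782, 1158 and 1033 CPM in WT and at 973, 1158 and 1257 CPM in KO, in replicate order. The lowest value was in a WT library and the highest in a KO library, and the groups overlapped. By mean CPM per kilobase of merged exons it ranked 63rd of 11812 protein-coding genes tested, within the top 0.533%. Its values rest on 98402 counts. WT averaged 991 ± 191 CPM and KO 1130 ± 144 CPM (SD, n = 3). The log2 fold change was 0.19 ± 0.16 (SE; edgeR adjusted p = 0.887), and the unadjusted p of 0.264 was the smallest of the 7 genes tested. KO was 114% of WT, with a 95% interval of 89.3% to 145%, so the interval leaves out a KO level under 89.3% or over 145% of WT.

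Il12a encodes p35, the chain that makes p40 into IL-12. No count was assigned to Il12a (ENSMUSG00000027776, chromosome 3 from 68690644 to 68698547, plus strand, 6 merged exons) in any of the 6 libraries. Genes listed at 0 throughout were common: 43.0% of all features and 29.4% of the 21702 protein-coding ones. The highest level a 0 allows, taken as 3 counts, was 0.265 CPM in KO replicate 3, the shallowest library, and 0.159 CPM in WT replicate 3, the deepest. These limits cover counting error only. They also take low counts at face value, and in each library fewer genes were listed with 1 count (140 to 216) than with 3 counts (238 to 337). Per kilobase of exon, Il12b was at least 3870-fold to at least 5720-fold above Il12a, depending on the library. KO and WT cannot be compared for a gene at 0 in both.

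Il23a encodes p19, the chain that makes p40 into IL-23, and it was at the edge of detection. Il23a (ENSMUSG00000025383, chromosome 10 from 128296139 to 128298752, minus strand, 3 merged exons) had 16 counts in WT replicate 2, or 1.08 CPM, and 16 counts in WT replicate 3, or 0.847 CPM. It was listed at 0 in WT replicate 1 and in all 3 KO libraries, so the groups overlapped at 0 and the gene did not pass the filter. Tested without the filter, its unadjusted p was 0.0448 with edgeR (adjusted p = 0.911) and 0.0257 with DESeq2 (adjusted p = 1.0). The gene passed the filter when 1 KO library was left out, with an unadjusted p of 0.0938 to 0.127 (edgeR adjusted p = 0.506 to 1.0). It also passed when WT replicate 1, the WT library at 0, was left out, a choice that the gene's own values make uninformative. Il12b was 1220-fold and 1390-fold above Il23a per kilobase in the WT libraries with counts. In the other 4 it was at least 5120-fold to at least 7550-fold above Il23a, if a listed 0 is taken as 3 counts. How low counts arose in the table is not known, so these bounds may not hold.

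IL-27 is made of p28 and EBI3, and both transcripts were read in every library at unequal levels. Il27 (ENSMUSG00000044701, chromosome 7 from 126589010 to 126594941, minus strand, 5 merged exons) was at 15, 27.4 and 13.8 CPM in WT and at 16.01, 17 and 17.6 CPM in KO. WT replicate 2 was the highest of the 6, and the 3 KO libraries lay within the WT range. The averages were 18.7 ± 7.52 CPM for WT and 16.9 ± 0.822 CPM for KO (SD, n = 3), with a log2 fold change of -0.13 ± 0.27 (SE; edgeR adjusted p = 0.958). KO was 91.4% of WT, with a 95% interval of 60.3% to 138%. The sign rests on 1 library: without WT replicate 2 the log2 fold change was 0.22. Of the 13 cDC1 markers, that library had the highest value of the 6 libraries for 7, among them Xcr1 (44.6 CPM, against 13.5 and 13.1 in the other WT libraries), and the lowest for 1, Zbtb46 (244 CPM, against 304.6 and 301). The 13 summed to 3250 CPM there, against 3060 and 3210 CPM in the other WT libraries, and their part in the Il27 value was not tested. In the annotation 10.09% of the Il27 exon bases lie under exons of Apobr on the opposite strand. Apobr was at 83.9 to 183.7 CPM, and reads in that stretch cannot be assigned with certainty, as the strand setting of the counting is unstated.

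Ebi3, the partner chain, varied little. It lies on chromosome 17 from 55952640 to 55957022 (ENSMUSG00000003206, plus strand, 5 merged exons) and was at 106, 93.7 and 116 CPM in WT and 94.7, 100.3 and 99.0 CPM in KO. All KO values fell between the lowest and highest WT values. Means were 105 ± 11.1 and 98.0 ± 2.91 CPM (SD, n = 3), and the log2 fold change was -0.10 ± 0.13 (SE; edgeR adjusted p = 0.931). KO was 93.2% of WT, with a 95% interval of 76.5% to 114%. Of its exon bases, 23.4% overlap Gm16712 on the opposite strand, which was at 18.3 to 28.0 CPM. Ebi3 exceeded Il12a, its partner in IL-35, at least 552-fold to at least 1070-fold per kilobase, if a listed 0 is taken as 3 counts.

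Il15 and Il15ra, the cytokine and the receptor chain that presents it, were both abundant, with overlapping values in WT and KO. Il15 (ENSMUSG00000031712, chromosome 8 from 82331632 to 82403222, minus strand, 11 merged exons) was at 222, 234 and 193 CPM in WT and 232, 228 and 175 CPM in KO. The lowest value in each group was in replicate 3, a number that names the library and is not known to pair it. Means were 216 ± 20.6 and 212 ± 31.5 CPM (SD, n = 3), with a log2 fold change of -0.03 ± 0.14 (SE; edgeR adjusted p = 0.986). KO was 98.0% of WT, with a 95% interval of 78.8% to 122%. The sign turned, to 0.02 without WT replicate 2 and to 0.08 without KO replicate 3. KO replicate 3 was the library with the highest sum of monocyte and macrophage genes (795 CPM), whose part in the Il15 value was not tested.

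Il15ra (ENSMUSG00000023206, chromosome 2 from 11705290 to 11734317, plus strand, 8 merged exons) was at 512, 545 and 493 CPM in WT and 567, 551 and 516 CPM in KO. It was the steadiest of the 7 genes tested, with a coefficient of variation of 5.22% over the 6 libraries, and the groups overlapped. Means were 517 ± 25.95 and 545 ± 25.88 CPM (SD, n = 3), with a log2 fold change of 0.08 ± 0.11 (SE; edgeR adjusted p = 0.942). KO was 105% of WT, with a 95% interval of 88.5% to 125%. By mean CPM per kilobase of merged exons both genes stood high among the 11812 coding genes tested. Il15ra was in the top 3.28% and Il15 in the top 4.27%.

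Il10 and Il6 were low, and their intervals are wide. Il10 (ENSMUSG00000016529, chromosome 1 from 131019845 to 131024974, plus strand, 5 merged exons) was at 1.32, 1.35 and 1.48 CPM in WT and 1.59, 1.58 and 0 CPM in KO. Its counts were 24, 20 and 28 in WT and 22, 27 and 0 in KO, so 5 libraries were nearly alike and KO replicate 3 alone was at 0, where 3 counts would be 0.265 CPM. The log2 fold change was -0.27 ± 0.72 (SE; edgeR adjusted p = 0.967), with a 95% interval of -1.83 to 1.3. Without KO replicate 3 it was 0.19, so the sign rests on that library, and limma-voom gave -1.23. Monocyte and macrophage genes had their highest sum in KO replicate 3, and Cpeb4 was low in it alone (8.56 CPM, against 109 to 126 CPM in the other 5). How low counts arose in the table is not known, so the 0 may not stand for an absence of transcript, and the part of either was not tested.

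Il6 (ENSMUSG00000025746, chromosome 5 from 30013114 to 30019981, plus strand, 4 merged exons) was at 5.99, 8.52 and 7.20 CPM in WT and 9.99, 8.41 and 6.44 CPM in KO, from 73 to 144 counts a library. The lowest value was in WT and the highest in KO, and the rest interleaved. Means were 7.24 ± 1.27 and 8.28 ± 1.78 CPM (SD, n = 3), and the log2 fold change was 0.22 ± 0.29 (SE; edgeR adjusted p = 0.931). KO was 117% of WT, with a 95% interval of 75.1% to 181%.

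**Figure D2:**
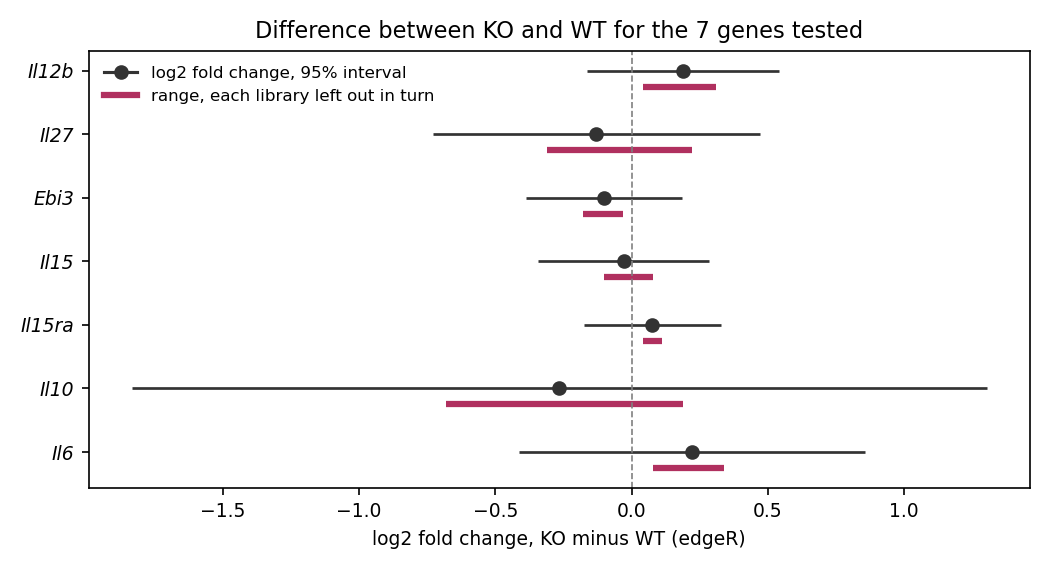
Log2 fold change, KO minus WT, of the 7 genes that passed the filter, as a point with its 95% interval (edgeR), above a red bar for the range when each library was left out in turn. Every interval crosses 0, the Il10 interval is the widest (-1.83 to 1.3), and the red bars of Il27, Il15 and Il10 reach both sides of 0.

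To compare levels between genes, CPM were divided by the length of the merged exons of each gene. In CPM per kilobase, averaged over the 6 libraries, the order was Il12b (539), Il15ra (119), Il15 (94.6), Ebi3 (88.0), Il27 (17.4), Il6 (3.20), Il10 (0.932), Il23a (0.143) and Il12a (0). Neighbours were separated in every library from Il12b to Il15ra, from Il15ra to Il15, and from Ebi3 down to Il10. Il15 and Ebi3 were not separated: their ranges, 77.5 to 103 and 81.2 to 100.3 CPM per kilobase, overlapped, and Il15 was the higher in 4 of 6 libraries. Nor were Il10 and Il23a, or Il23a and Il12a, whose ranges all reached 0. With the longest coding transcript as the length the order was the same, Il15ra rose to 274 CPM per kilobase and Il15 to 112, and Il15 was then above Ebi3 in 6 of 6 libraries. This is a description of levels, and the choice of length decides the size of the Il15ra value.

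**Figure D3:**
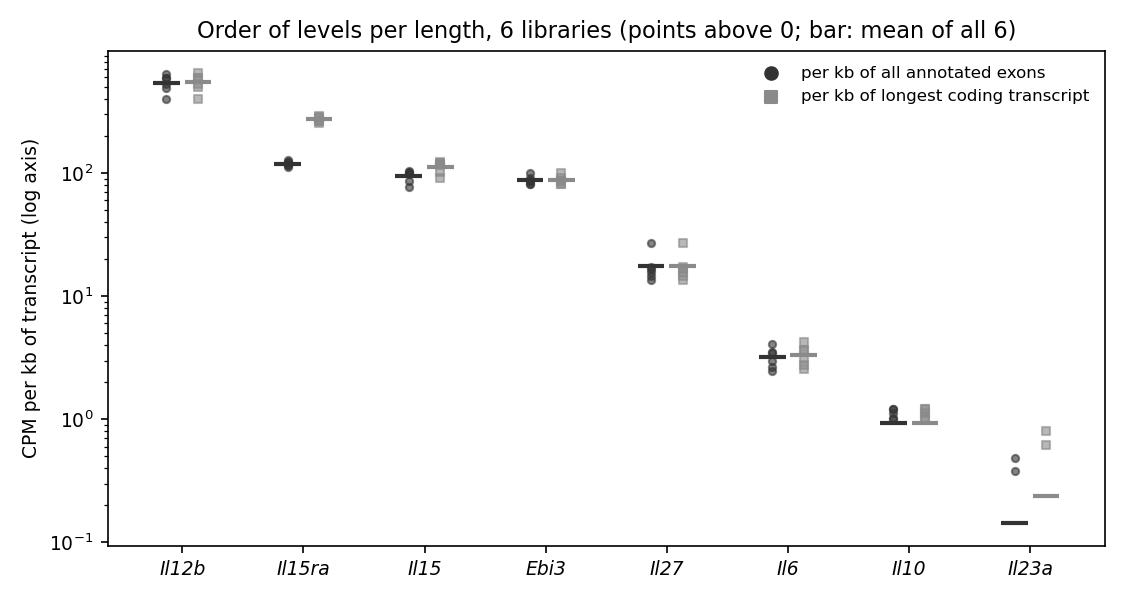
Level of each gene in CPM per kilobase on a log axis, for merged exons (dark circles) and for the longest coding transcript (grey squares), with a point for each library above 0 and a bar at the mean of all 6; Il12a, at 0, is not drawn. With merged exons Il12b stands at 398 to 639 CPM per kilobase, above Il15ra, Il15 and Ebi3 between 77.5 and 127.5, and the last places are held by genes with libraries at 0.

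Chains that work together were set against each other within each library, as a ratio per kilobase. Ebi3 exceeded Il27 6.23-, 3.02- and 7.4-fold in WT and 5.23-, 5.21- and 4.96-fold in KO. The KO ratios were nearly equal and the WT ratios spread on both sides of them, with WT replicate 2 the lowest. On the log2 scale the means were 2.37 ± 0.69 in WT and 2.36 ± 0.04 in KO (SD, n = 3), a difference of -0.02 (exact two-sided permutation test, p = 1.0). Il15ra exceeded Il15 1.17-, 1.19- and 1.3-fold in WT and 1.24-, 1.23- and 1.5-fold in KO. KO replicate 3 was the highest, and the other libraries lay close together. The log2 means were 0.28 ± 0.08 and 0.40 ± 0.16 (SD, n = 3), a difference of 0.11 (exact two-sided permutation test, p = 0.4, adjusted p = 0.667 over 5 planned ratios). Without KO replicate 3 the difference was 0.02. With 3 against 3 libraries the smallest p such a test can give is 0.1. The other 3 planned ratios have Il12a or Il23a below the line and are given above only as bounds, since any fitted value would be set by the count added to 0.

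**Figure D4:**
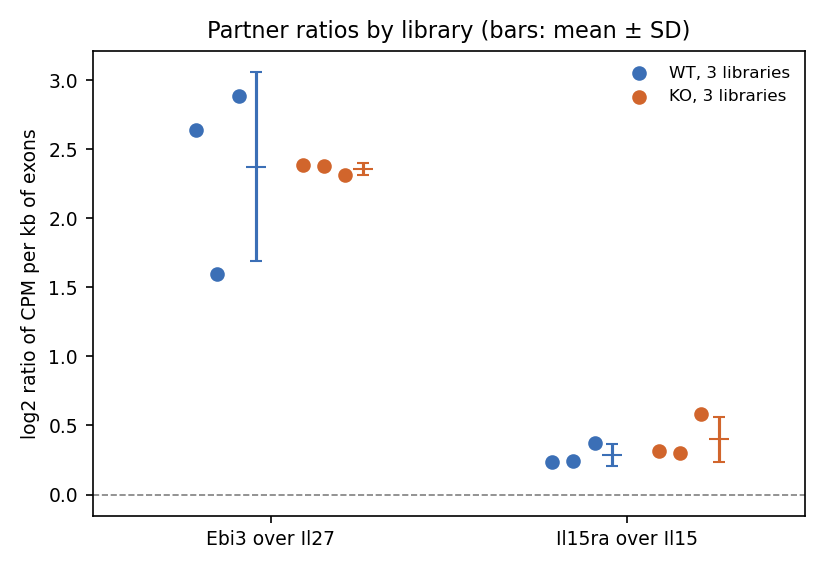
Log2 ratio per kilobase of Ebi3 over Il27 and of Il15ra over Il15 in each library, WT in blue and KO in orange, with each group's mean ± SD beside the points. The Ebi3 over Il27 ratio spans 1.60 to 2.89 in WT and 2.31 to 2.39 in KO, and the Il15ra over Il15 ratio lies between 0.23 and 0.58 throughout.

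For each gene tested, the protein-coding genes whose course over the 6 libraries was most alike were sought, by the root mean square difference of log2 CPM centred on each gene's mean, among 9211 genes with a mean of at least 5 CPM (9212 for Il10). For Il12b they were Mtf2 (a difference of 0.04, at 17.6, 25.4 and 23.6 CPM in WT and 22.3, 25.9 and 30.2 CPM in KO) and Mphosph6 (0.05). For Il27 they were Prr7 (0.08) and Rsad2 (0.08), an interferon-inducible gene that was at 157 CPM in WT replicate 2 and at 73.6 to 95.8 CPM in the other 5 libraries. Those of Ebi3 were Rest (0.03) and Acvrl1 (0.03), those of Il15 Bud23 (0.03) and Mrps27 (0.04), those of Il15ra Agfg1 (0.03) and Spsb1 (0.03), and those of Il6 Homez (0.05) and Nudt13 (0.06). The closest to Il10 were Ankrd49 (0.13), at 0.529 CPM in KO replicate 3 and 7.99 to 9.87 CPM elsewhere, and Cpeb4 (0.14), at 8.56 and 109 to 126 CPM. For Il10 the likeness is that of 1 library with a low value. Likeness over 6 libraries, out of so many candidates, is a description, and it says nothing of shared function.

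The receptors for these cytokines were then considered, since cDC1s can respond to some of them. Of 11 receptor genes all 11 were tested, 7 had a log2 fold change above 0 and 4 below 0, with a median of 0.09, and 0 reached an unadjusted p below 0.05. The 3 with the smallest p were Il6st, Il12rb2 and Il10rb. Il6st, the gp130 chain shared by IL-6 and IL-27, was at 98.4, 80.5 and 114 CPM in WT and 74.1, 80.7 and 93.5 CPM in KO, which gave a log2 fold change of -0.25 ± 0.16 (SE; edgeR adjusted p = 0.853). The IL-12 receptor chain Il12rb2 was at 10.7, 10.01 and 11.7 CPM in WT and 10.8, 12.7 and 19.5 CPM in KO, where 1 library was high. Il10rb, a chain of the IL-10 receptor, was at 100.2, 118 and 123 CPM and 128, 125 and 125 CPM, with every KO value above every WT value by a small margin (log2 fold change 0.15 ± 0.13, SE; edgeR adjusted p = 0.889). Of all genes tested, 10.6% had groups that did not overlap.

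Of 11 JAK and STAT genes, which carry the signal inside the cell, 6 lay above 0 and 5 below 0, with a median of 0.02, and 0 reached an unadjusted p below 0.05. Stat4, which relays IL-12 signals, was at 168.5, 77.6 and 143.5 CPM in WT and 146, 276.5 and 336 CPM in KO. KO replicates 2 and 3 were above all WT libraries and KO replicate 1 was among them. Its log2 fold change was 0.96 ± 0.40 (SE), at an unadjusted p of 0.052 (edgeR adjusted p = 0.834). With upper-quartile scaling, DESeq2, limma-voom, no robust estimation or the legacy quasi-likelihood fit, 1 of the 11 genes reached an unadjusted p below 0.05. Dropping WT replicate 1 also gave 1 gene, dropping KO replicate 1 gave 2, and the remaining settings gave 0. Of all genes, 1621 of 13173 were at that level with KO replicate 1 dropped and 584 of 12898 with WT replicate 1 dropped. The share in the main fit was 5.77%. Stat5a, which relays IL-15 signals, had a log2 fold change of 0.16 ± 0.14 (SE; edgeR adjusted p = 0.888).

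Among 22 transcription factors known to act on these cytokine genes, 11 lay above 0 and 11 below 0, with a median of -0.02 and 0 at an unadjusted p below 0.05. That number was 4 of 22 without KO replicate 1 and 2 with DESeq2. It was 1 with limma-voom, with the replicate block, without WT replicate 1 and without WT replicate 3. Over all genes tested it was 1621 of 13173 without KO replicate 1, 743 of 18374 with DESeq2 and 5.77% in the main fit. Irf4, a factor of dendritic cell maturation, was at 120, 78.8 and 93.2 CPM in WT and 104, 123 and 181 CPM in KO, giving a log2 fold change of 0.48 ± 0.22 (SE; edgeR adjusted p = 0.834). Prdm1 was at 38.5, 24.4 and 21.02 CPM in WT and 15.4, 22.8 and 22.3 CPM in KO (log2 fold change -0.47 ± 0.26, SE). Fos, a subunit of AP-1, was at 867, 991 and 710 CPM in WT and 874, 560 and 395 CPM in KO (log2 fold change -0.49 ± 0.27, SE). Each of these 3 had overlapping groups.

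Of 18 sensing and licensing receptors and adaptors, which switch the cytokine genes on, 5 lay above 0 and 13 below 0, with a median of -0.09. At an unadjusted p below 0.05, 0 were higher and 2 lower in KO, against 5.77% of all genes in both directions, and 0 passed the adjusted threshold. Tlr11, a sensor of profilin-like proteins that is typical of mouse cDC1s, was at 24.5, 37.5 and 33.6 CPM in WT and 18.6, 21.96 and 24.96 CPM in KO. The groups touched, with KO replicate 3 just above WT replicate 1, and the log2 fold change was -0.55 ± 0.21 (SE; unadjusted p = 0.0246, edgeR adjusted p = 0.834). Ifngr1, a chain of the interferon-gamma receptor, was at 73.8, 85.1 and 60.7 CPM in WT and 58.3, 59.2 and 52.4 CPM in KO, without overlap (log2 fold change -0.36 ± 0.16, SE; unadjusted p = 0.0401, edgeR adjusted p = 0.834). Tnfrsf1a, a receptor for TNF, had a log2 fold change of -0.35 ± 0.18 (SE; edgeR adjusted p = 0.834). Without WT replicate 2, and likewise without KO replicate 2, 0 of the 18 reached an unadjusted p below 0.05. Of all genes tested, 850 of 13155 were at that level without WT replicate 2 and 376 of 12950 without KO replicate 2. Values of the cDC1 markers moved alongside, as given above (11 of 13 below 0), and their part was not tested.

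Of 24 other cytokines, 17 had any count and 9 were tested, of which 3 lay above 0 and 6 below 0, with a median of -0.21. Among them Il18, which acts with IL-12 on NK and T cells, was the only one at an unadjusted p below 0.05. Of all genes tested 5.77% were at that level. Il18 was at 6.10, 7.57 and 3.92 CPM in WT and 3.48, 3.62 and 2.03 CPM in KO, without overlap. Its log2 fold change was -0.88 ± 0.40 (SE; unadjusted p = 0.0496, edgeR adjusted p = 0.834). With upper-quartile scaling, limma-voom or no robust estimation, 0 of the list reached an unadjusted p below 0.05. The number was also 0 when WT replicate 1, WT replicate 2, KO replicate 2 or KO replicate 3 was left out. In those 4 fits, in that order, it was 584 of 12898, 850 of 13155, 376 of 12950 and 444 of 13203 over all genes tested. For the list it was 2 with no filter, with DESeq2 and without KO replicate 1. Over all genes tested these settings gave 884 of 18410, 743 of 18374 and 1621 of 13173. With no filter every gene with any count was tested, so more of the list entered than in the main fit. Tnf was at 81.7, 60.0 and 55.1 CPM in WT and 71.8, 35.8 and 60.5 CPM in KO, with interleaved values. Clcf1, a cytokine that also signals through gp130, had a log2 fold change of -0.21 ± 0.29 (SE; edgeR adjusted p = 0.936). Csf2 was at 0 counts in all 6 libraries, as were Il9, Il19, Il20, Il21 and Il24, and Ifnb1 was read at 0.203 CPM in 1 WT library only.

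Of 16 ER folding enzymes and chaperones, through which secreted chains such as p40 pass, 12 lay above 0 and 4 below 0, with a median of 0.09, and 0 reached an unadjusted p below 0.05. Manf, an ER stress-inducible protein, was at 26.7, 29.2 and 25.5 CPM in WT and 30.6, 35.4 and 32.5 CPM in KO, giving a log2 fold change of 0.28 ± 0.16 (SE; edgeR adjusted p = 0.845) without overlap of the groups. The co-chaperones Dnajb11 and Sdf2l1 had log2 fold changes of 0.27 ± 0.16 and 0.28 ± 0.18 (SE; edgeR adjusted p = 0.853 for both). In all 6 lists together, the number of genes past the adjusted threshold was 0. Il10rb, Ifngr1, Il18 and Manf, stated to be without overlap, were named for a small p, a choice that favours such genes. Groups did not overlap for 10.6% of all genes tested.

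**Figure D5:**
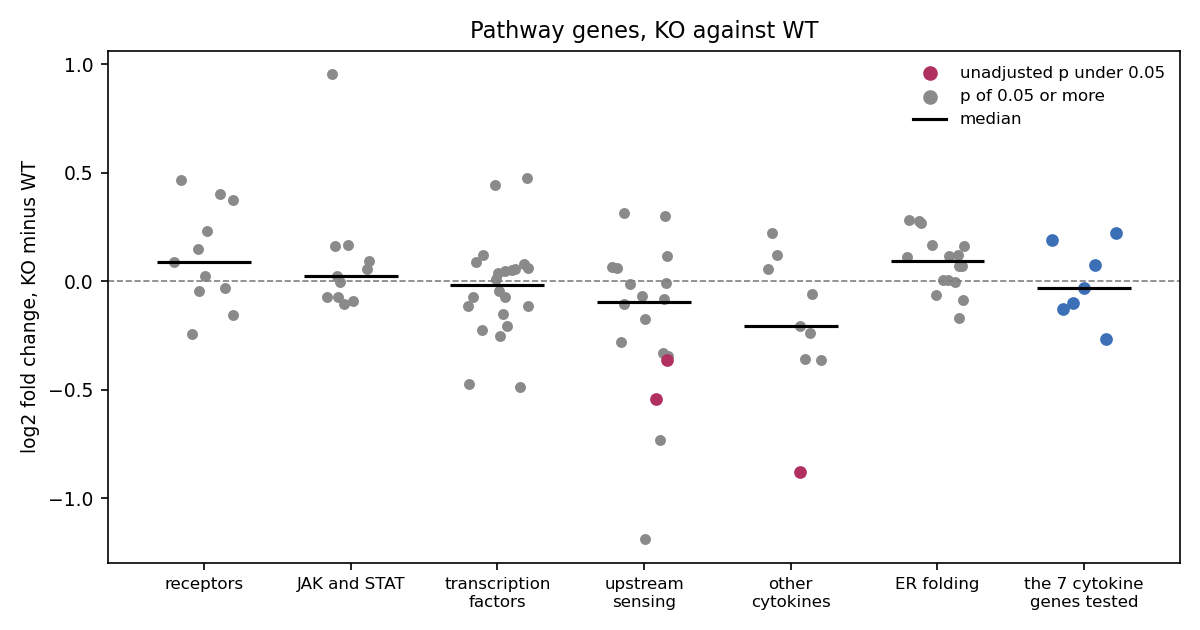
Log2 fold change, KO minus WT, of the tested genes of each of the 6 pathway lists, 1 point a gene, with a bar at the median of each list, red points for an unadjusted p below 0.05 and grey points for the others; the 7 cytokine genes tested stand at the right in blue. The list medians lie between -0.21 and 0.09, and the red points are Tlr11, Ifngr1 and Il18.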

How the data were processed

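RNA of sorted cDC1s was read in pairs of 150 bases, per the labels' protocols. The deposited table holds raw read counts per Ensembl gene, made by the authors with HISAT2 2.0.5 and HTSeq on mm10, per the submitters' processing notes; annotation release, strand setting and treatment of multiply matching reads: not given in the sources used here. Columns were matched to samples by the library label in each description. GENCODE M21 named 32235 of 32285 features (99.8%) and gave exon lengths and positions.

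Counts were filtered by filterByExpr (12568 genes left), normalized by TMM and tested in edgeR 4.0.16 under R 4.3.3 (glmQLFit with robust estimation, glmQLFTest), KO against WT; p-values were adjusted by Benjamini-Hochberg and called below 0.05. The SE is the log2 fold change divided by the square root of F, and the common biological coefficient of variation was 30.1%. Ratios of chains used CPM per kilobase with 0.5 counts added and an exact permutation test. The fitting script was tested on simulated counts.

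The genes and the pathway and marker lists were chosen with earlier results of these data known. Named genes were the 9 genes, Vps33b and Vipas39, the 3 tested members of each pathway list with the smallest p, and the 2 genes most alike in course to each tested gene, of which 1 is not reported here; Xcr1, Zbtb46, Csf2, Il9, Il19, Il20, Il21, Il24 and Ifnb1 were singled out after seeing their values. Other settings tried were upper-quartile or RLE factors, a filter of at least 1 CPM in 3 libraries or none, limma-voom (limma 3.58.1), DESeq2 1.42.0, no robust estimation, the replicate number as a block, another length and added count for ratios, and each library left out in turn; edgeR's legacy quasi-likelihood fit was added after seeing the data. Libraries correlated at 0.928 to 0.958 over log2 CPM, and no pair agreed within sampling noise.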

Additional observations from a re-analysis of the deposited data

How the results depend on the processing

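Of 105 alternative fits of the tested genes, 101 kept the direction of the log2 fold change, 4 reversed it, and 0 passed the adjusted threshold. The reversals came from leaving out a library: the range was -0.31 to 0.22 for Il27 (0.22 without WT replicate 2), -0.10 to 0.08 for Il15 (0.02 when WT replicate 2 was dropped, 0.08 when KO replicate 3 was) and -0.68 to 0.19 for Il10 (0.19 without KO replicate 3); limma-voom gave -1.23 for Il10. Leaving out 1 library moved the Ebi3 over Il27 difference between -0.40 and 0.24 on the log2 scale, namely 0.12 if WT replicate 1 was dropped and 0.01 if KO replicate 3 was; the cause was not tested. The Il15ra over Il15 difference ranged from 0.02 to 0.16. The WT log2 ratio of Il15ra over Il15 was 0.28 with merged exons and 1.24 with the longest coding transcript, since the length of Il15ra differs between them. Over all genes, the number past the adjusted threshold was 0, was 3 without the filter and 7 with DESeq2, and ranged from 0 to 7 as each library was left out, where the number at an unadjusted p below 0.05 ranged from 376 to 1621. With the replicate block 0 genes passed and 942 were at an unadjusted p below 0.05. Deviations of same-numbered libraries correlated at 0.005, 0.028 and -0.001, so no shared replicate effect was seen. The labels do not say whether same-numbered libraries were prepared together, and these correlations cannot decide it. Il12a, Il23a and Il10 rest on 0, 32 and 121 counts in all, and for Il23a the 0 does not follow depth: WT replicate 1, at 0, is deeper than WT replicate 2, which had 16.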
